A study of Rattus norvegicus with 12 samples.

Results

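The genes described here are 10 regulators through which actin tension and cell contact reach transcription, measured in rat atrial fibroblasts exposed to angiotensin II (AngII). They are Srf, its co-activators Mrtfa, Mrtfb and Myocd, the Hippo pathway effectors Yap1 and Wwtr1 with their DNA-binding partner Tead1, the effector target Ankrd1, and the regulators Ajuba and Lats2. The members were picked out by gene symbol, with earlier results of these data known, and all 10 were found among the 22850 features listed. All 10 were counted in each of the 12 libraries and passed the filter on low counts in each comparison.

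The cells were separated by differential adhesion from the atria of Sprague-Dawley rats aged 1 to 3 days, a step that enriches fibroblasts and does not sort them. Each of the 3 groups held 4 libraries and received AngII at 1 μmol/L for 48 h in medium with 2% FBS. The AngII group received no peptide, the AngII+HNG group received HNG, an analogue of the mitochondrial peptide humanin, at 10 μmol/L, and the AngII+MOTS-c group received MOTS-c, another mitochondrial peptide, at 5 μmol/L. The peptides were given 1 h before AngII. All groups carried AngII and no group without it was used here, so the values show what each peptide added to AngII and not what AngII did. The names of the libraries give replicates 2 and 3 of each group a common number, whereas the methods call the 4 samples of a group biological replicates. The libraries are treated here as 4 separate samples, and a fit with the sum of replicates 2 and 3 is given among the alternatives.

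SRF is a transcription factor that binds DNA elements called CArG boxes. Its MRTF co-activators are held in the cytoplasm by monomeric actin and enter the nucleus when actin polymerises. The TCF cofactors act with SRF at immediate early genes after growth factor signals. YAP (Yap1) and TAZ (Wwtr1) are co-activators that the LATS kinases phosphorylate and keep out of the nucleus, and they act on DNA mainly through TEAD proteins. In cardiac fibroblasts both routes are known to take part in the change to contractile myofibroblasts. Because both are controlled largely through protein location and phosphorylation, transcript levels do not measure their activity.

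The promoters of Srf and Ajuba are shown because these were the members that fell with HNG. Both are the 250 bases before the RefSeq gene start on build GRCr8, written 5′ to 3′ on the strand of the gene. The Srf window lies on the plus strand at chr9:21923826-21924075, and its capitals mark 2 CArG boxes, at 81 to 72 and 61 to 52 bases before the start. The Ajuba window lies on the minus strand at chr15:32000043-32000292, and its capitals mark 1 TEAD motif at 236 to 231 bases before the start.
Srf: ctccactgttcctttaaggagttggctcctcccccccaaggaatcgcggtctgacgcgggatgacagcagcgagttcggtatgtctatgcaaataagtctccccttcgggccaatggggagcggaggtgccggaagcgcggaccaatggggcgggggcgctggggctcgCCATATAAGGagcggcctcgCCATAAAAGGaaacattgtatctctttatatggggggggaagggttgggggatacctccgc
Ajuba: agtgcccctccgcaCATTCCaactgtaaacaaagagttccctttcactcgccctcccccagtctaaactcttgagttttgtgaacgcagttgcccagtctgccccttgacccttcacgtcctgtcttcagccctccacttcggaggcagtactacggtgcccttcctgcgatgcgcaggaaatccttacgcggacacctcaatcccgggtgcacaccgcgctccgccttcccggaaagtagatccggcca
The TEAD motif was searched as GGAATG or its reverse complement CATTCC, the CArG box on both strands, and the motifs do not overlap. RefSeq promoters were matched for 6 of the 10 members, and Myocd, Tead1, Ankrd1 and Lats2 had no entry. Only Srf among these 6 held a CArG box, and only Yap1 and Ajuba held a TEAD motif. Of the 33469 promoters of the same length, 1.5% held a CArG box and 12.1% a TEAD motif. Among the lists described later, a CArG box lay in 5 of the 25 SRF-MRTF targets with a promoter, namely Actg1, Cnn2, Fblim1, Fhl1 and Fhl2. It lay in 2 of 9 immediate early genes and in none of the 15 YAP-TAZ signature genes with a promoter. A TEAD motif lay in 5 of these 15 signature genes, in 7 of the 25 SRF-MRTF targets and in 6 of 11 regulators of YAP, TAZ and TEAD, so neither motif marked a single list. A match describes the letters of the window and is not evidence of binding.

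The libraries held 27960586 to 38322354 counts. Fibroblast markers dominated the marker lists, with summed levels of 61020.2 to 69165.3 CPM (the count relative to the TMM-scaled total of its library). All 14 cardiomyocyte markers were detected, and their summed levels of 7081 to 9319 CPM overlapped between groups. In bulk RNA, fewer cells of a type and less RNA per cell cannot be told apart.

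Per gene length, the members spanned a wide range of levels. FPKM, which divides a count by gene length and library total, is used here for levels between genes, and Ankrd1, an ankyrin repeat protein of the heart and a known YAP target, was far above the rest. Its mean over the 12 libraries was 527.8 ± 33.2 FPKM (SD, n = 12), with a range of 489.4 to 577.8 FPKM. Cardiomyocyte markers summed to 7081 to 9319 CPM in the same libraries, and how much of the Ankrd1 level came from cardiomyocytes was not tested. Yap1 followed at 44.6 ± 1.37 FPKM and Tead1 at 42.2 ± 2.62 FPKM (SD, n = 12 each). The ranges of Yap1 and Tead1 overlapped, and Yap1 was above Tead1 in 9 of 12 libraries.

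The middle of the order was crowded. Lats2 had a mean of 32.8 ± 1.40 FPKM, Ajuba 29.6 ± 3.35 FPKM, Wwtr1 25.7 ± 1.74 FPKM and Srf 20.7 ± 1.24 FPKM (SD, n = 12 each). Each of these overlapped its neighbour in range, although Lats2 was above Ajuba in 12 of 12 libraries, Ajuba above Wwtr1 in 10 of 12, and Wwtr1 above Srf in 12 of 12. The SRF co-activators were the lowest, with Mrtfa at 10.3 ± 0.491 FPKM, Mrtfb at 5.72 ± 0.330 FPKM and Myocd, the co-activator typical of smooth and cardiac muscle, at 3.81 ± 0.374 FPKM (SD, n = 12 each). The ranges of Srf, Mrtfa, Mrtfb and Myocd did not overlap one another.

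**Figure D1:**
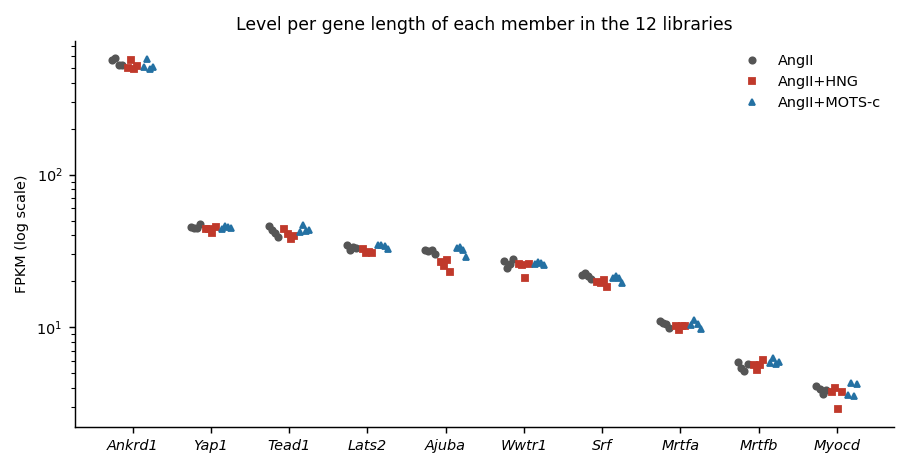
FPKM on a log axis for each member in the 12 libraries, ordered by mean, with 1 point per library and the 3 groups set side by side. Ankrd1 lies at 489.4 to 577.8 FPKM, Yap1 and Tead1 overlap, and Myocd lies lowest at 2.91 to 4.33 FPKM.

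Within families, the member with the higher level was the same in all 12 libraries. The ratio of FPKM was 1.67 to 1.98 for Yap1 over Wwtr1 and 1.63 to 2.04 for Mrtfa over Mrtfb. Lats2 exceeded its paralogue Lats1 by a ratio of 2.36 to 2.72. Tead1 exceeded Tead2 by 2.83 to 3.82, Tead3 by 1.83 to 2.27 and Tead4 by 7.76 to 13.5. For Yap1 over Wwtr1 the group means of the ratio were 1.72 ± 0.0675 with AngII, 1.77 ± 0.139 with AngII+HNG and 1.72 ± 0.0160 with AngII+MOTS-c (SD, n = 4 each). Mrtfa over Mrtfb was at 1.90 ± 0.139, 1.78 ± 0.0657 and 1.75 ± 0.0873, Tead1 over Tead2 at 3.41 ± 0.287, 3.46 ± 0.271 and 3.28 ± 0.353, and Tead1 over Tead4 at 12.5 ± 1.18, 11.1 ± 2.36 and 11.1 ± 1.90 in the same order of groups (SD, n = 4 each). Lats2 over Lats1 was at 2.41 ± 0.0581 with AngII, 2.50 ± 0.166 with AngII+HNG and 2.52 ± 0.0427 with AngII+MOTS-c, and Tead1 over Tead3 was at 1.91 ± 0.0858, 2.06 ± 0.207 and 2.06 ± 0.0779 (SD, n = 4 each). These ratios were not tested between groups.

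The comparison of AngII+HNG with AngII asks what HNG changed in fibroblasts under AngII. Ajuba and Srf were lower with HNG, Ajuba by more than any other member, and the other 8 members did not pass the test. Ajuba is a LIM domain protein that binds the LATS kinases and restrains them, which favours YAP activity. Ajuba was at 108.9, 108.0, 109.3 and 103.7 CPM in AngII replicates 1 to 4 and at 90.2, 84.4, 92.4 and 77.2 CPM in the AngII+HNG replicates. The 4 AngII+HNG libraries all lay below the 4 AngII libraries. The means were 107.5 ± 2.60 and 86.1 ± 6.77 CPM (SD, n = 4), a level with HNG of 80.1% of that with AngII alone. The log2 fold change of Ajuba was -0.32 (SE 0.053, 95% interval -0.43 to -0.20), with an adjusted p of 0.0042 by the quasi-likelihood test of edgeR, adjusted after Benjamini and Hochberg.

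Srf itself changed less. Srf was at 94.5, 97.8, 93.6 and 89.2 CPM in the AngII replicates and at 84.6, 82.6, 85.9 and 78.1 CPM in the AngII+HNG replicates. The groups did not overlap, and replicate 4 was the lowest of its group in both. The means were 93.8 ± 3.53 and 82.8 ± 3.42 CPM (SD, n = 4), a level of 88.3%. The log2 fold change of Srf was -0.18 (SE 0.044, 95% interval -0.27 to -0.081), with an adjusted p of 0.0334 in edgeR's quasi-likelihood test. This call was close to the threshold of 0.05 and was lost in 9 of 17 alternative analyses, in which the adjusted p ranged over 0.00558 to 0.116 and the log2 fold change over -0.20 to -0.15. Among single libraries, the adjusted p of Srf was 0.102, 0.116 and 0.0866 without AngII replicate 1, 2 or 3, and 0.0853 and 0.0946 without AngII+HNG replicate 2 or 4. Ajuba kept its call in all 17 alternatives, with adjusted p from 2.86e-06 to 0.0233.

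**Figure D2:**
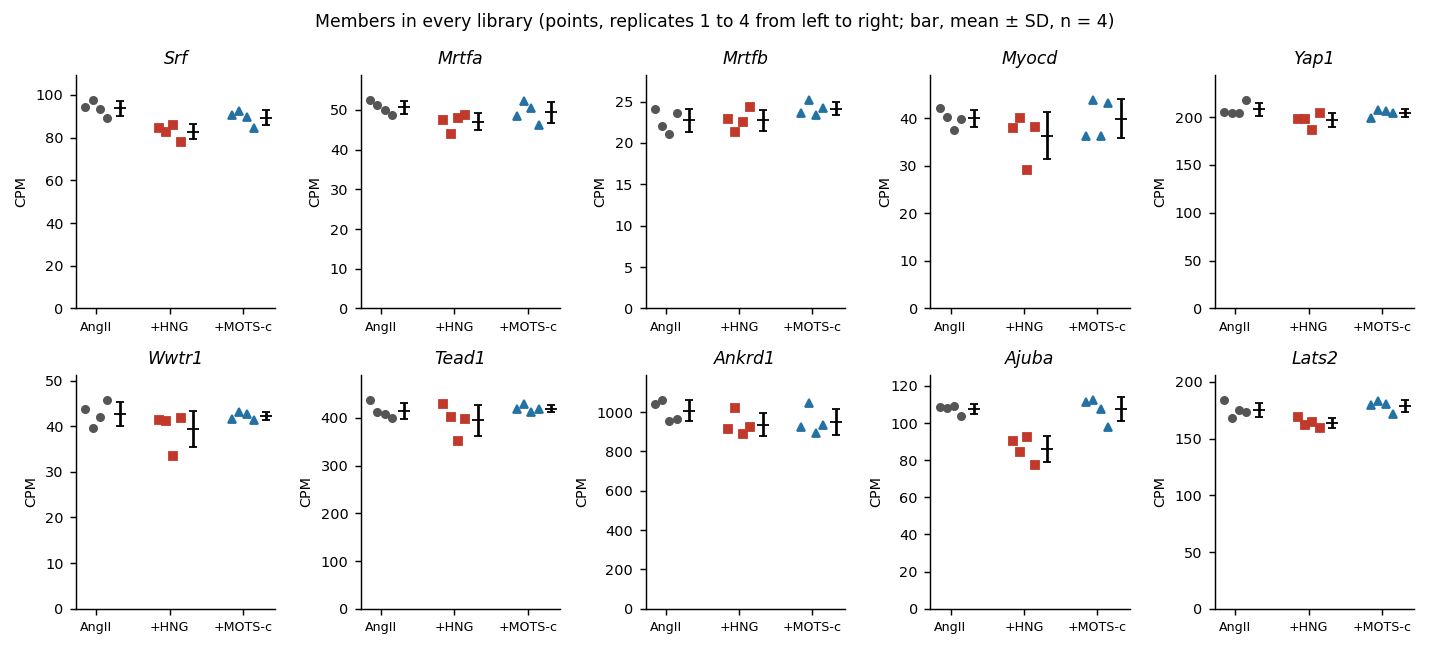
CPM of each member in every library, with replicates 1 to 4 from left to right in each group, and the mean ± SD (n = 4) beside the points. Ajuba falls from 103.7 to 109.3 CPM with AngII to 77.2 to 92.4 CPM with AngII+HNG, and its AngII+MOTS-c libraries lie at 98.1 to 112.5 CPM.

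The SRF co-activators did not pass the test. Mrtfa was at 52.6, 51.2, 50.1 and 48.75 CPM with AngII and at 47.4, 43.9, 48.1 and 48.74 CPM with AngII+HNG. The groups thus failed to overlap by the narrowest margin, between the highest HNG library and the lowest AngII library. Its log2 fold change was -0.11 (SE 0.049, adjusted p = 0.246, edgeR). Mrtfb was at 24.1, 22.1, 21.1 and 23.6 CPM with AngII and at 22.9, 21.3, 22.5 and 24.4 CPM with AngII+HNG. These groups covered the same range, and the interval of the log2 difference ran from -0.13 to 0.14. Myocd was at 42.1, 40.3, 37.6 and 39.9 CPM with AngII and at 37.98, 40.1, 29.2 and 38.2 CPM with AngII+HNG. The AngII+HNG spread of Myocd came mainly from replicate 3, and its log2 fold change was -0.13 (SE 0.083, adjusted p = 0.410, edgeR).

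Yap1 was at 205.6, 204.1, 204.1 and 218.2 CPM with AngII and at 197.8, 198.1, 186.8 and 203.9 CPM with AngII+HNG. Every HNG library was below every AngII library, by a small margin, and the log2 fold change was -0.08 (SE 0.040, adjusted p = 0.295, edgeR). Wwtr1 was at 43.7, 39.6, 42.1 and 45.8 CPM with AngII and at 41.4, 41.1, 33.4 and 41.7 CPM with AngII+HNG. The Wwtr1 groups overlapped, with AngII+HNG replicate 3 alone at the bottom, and the log2 fold change was -0.12 (SE 0.072, adjusted p = 0.409, edgeR). Tead1 was at 437.8, 412.5, 407.2 and 400.0 CPM with AngII and at 428.7, 402.4, 350.6 and 397.4 CPM with AngII+HNG. The groups overlapped and the log2 fold change was -0.07 (SE 0.055, adjusted p = 0.547, edgeR).

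Ankrd1 was at 1040, 1062, 956.8 and 964.4 CPM with AngII and at 912.9, 1023, 886.4 and 925.0 CPM with AngII+HNG. Its groups overlapped, with a log2 fold change of -0.10 (SE 0.051, adjusted p = 0.30, edgeR). Lats2, a kinase that inhibits YAP and TAZ and is itself a known YAP target, was at 184.2, 168.4, 175.3 and 173.3 CPM with AngII and at 168.9, 162.4, 164.5 and 159.3 CPM with AngII+HNG. The highest HNG library lay just above the lowest AngII library, and the log2 fold change was -0.10 (SE 0.039, adjusted p = 0.185, edgeR).

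Counted together, 2 of the 10 members passed the test lower and 0 higher in AngII+HNG against AngII. Over all 14524 genes tested, 2.58% passed lower and 3.40% higher. Groups did not overlap for 4 members (Srf, Mrtfa, Yap1 and Ajuba), against 13.6% of all genes tested. The log2 fold change was below 0 for 9 of 10 members, against 48.74% of all genes tested. The members had a median of -0.10, beside a median over all genes tested of 0.0043. An unadjusted p below 0.05 was found for 4 members (Ajuba, Srf, Lats2 and Mrtfa), against 20.3% of all genes tested.

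AngII+HNG replicate 3 stood apart for several members. It held the lowest of all 12 CPM values for Myocd, Yap1, Wwtr1, Tead1 and Ankrd1. On the log2 scale it lay below the other AngII+HNG libraries by -0.41 for Myocd, -0.31 for Wwtr1 and -0.22 for Tead1, whereas it lay above them by 0.14 for Ajuba and 0.07 for Srf. Over all genes, its median log2 difference from the other AngII+HNG libraries was 0.092 in the tertile of genes with the shortest transcripts, -0.0077 in the middle tertile and -0.095 in the longest. The lengths implied by the counts and FPKM values were 10164 bases for Myocd, 9689 bases for Tead1 and 1609 bases for Wwtr1. Without this library the log2 fold changes against AngII were -0.04 for Myocd, -0.05 for Wwtr1 and -0.02 for Tead1, with Ajuba at -0.36 and Srf at -0.20. The part of this library property in the members' values was not tested beyond leaving the library out.

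The comparison of AngII+MOTS-c with AngII asks the same question of MOTS-c and shares the 4 AngII libraries with the comparison before. None of the 10 members passed the test in edgeR or in DESeq2, and 0 had an unadjusted p below 0.05, against 5.05% of all genes tested. Over all 14488 genes tested, 0% passed lower and 0.0069% (1 gene) higher. The groups overlapped for all 10 members, against 3.44% of all genes without overlap.

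Ajuba was at 111.3, 112.5, 107.8 and 98.1 CPM with AngII+MOTS-c, a mean of 107.4 ± 6.53 CPM (SD, n = 4) beside 107.5 ± 2.60 CPM with AngII. Its interval for the log2 difference ran from -0.090 to 0.091, which leaves out a fall of the size seen with HNG. Srf was at 90.4, 92.7, 89.7 and 84.4 CPM, a mean of 89.3 ± 3.5 CPM (SD, n = 4) that lay between those of the other groups. All 4 of these Srf values were below the AngII mean, and the log2 difference was -0.07 (95% interval -0.15 to 0.013, adjusted p = 0.924, edgeR).

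The other 8 members had log2 differences of -0.08 to 0.09 with MOTS-c. Mrtfb was at 23.7, 25.2, 23.4 and 24.3 CPM and had the highest log2 difference of the members, 0.09 (95% interval -0.036 to 0.21). All 4 of these Mrtfb values were above the AngII mean of 22.7 CPM, yet the groups overlapped. Ankrd1 was at 924.7, 1045, 894.5 and 934.7 CPM and had the lowest log2 difference, -0.08 (95% interval -0.19 to 0.023). Myocd was at 36.3, 43.9, 36.3 and 43.1 CPM, with replicates 2 and 4 above the others, and a log2 difference of 0.00030. The summed cardiomyocyte markers of these libraries were 7604, 8966, 7081 and 9222 CPM, also higher in replicates 2 and 4. In AngII+HNG replicate 3, where Myocd was lowest, that sum was 8724 CPM, within its group's range of 7965 to 9319 CPM. The part of cardiomyocyte content in the level of Myocd was not tested. Mrtfa ranged over 46.3 to 52.2 CPM, Yap1 over 198.9 to 207.8 CPM, Wwtr1 over 41.4 to 43.1 CPM, Tead1 over 411.8 to 428.4 CPM and Lats2 over 171.5 to 183.3 CPM. Over all 10 members the intervals stayed within -0.19 to 0.21 on the log2 scale.

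The comparison of AngII+HNG with AngII+MOTS-c tests the difference between the peptides directly, at unequal concentrations, and uses the same HNG libraries as the first comparison. Ajuba was lower with HNG than with MOTS-c, with all 4 HNG libraries (77.2 to 92.4 CPM) below all 4 MOTS-c libraries (98.1 to 112.5 CPM). Its log2 fold change was -0.32 (SE 0.061, 95% interval -0.45 to -0.19), with an adjusted p of 0.0094 in edgeR's quasi-likelihood test, and the call was kept in all 17 alternatives. Lats2 was at 159.3 to 168.9 CPM with HNG and at 171.5 to 183.3 CPM with MOTS-c, again without overlap. The log2 fold change of Lats2 was -0.13 (SE 0.038, adjusted p = 0.084, edgeR), which missed the threshold, and the adjusted p was 0.0277 in DESeq2 and 0.0492 when all 12 libraries were fitted together in edgeR.

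The difference in Srf between the peptides was -0.11 on the log2 scale (SE 0.045, 95% interval -0.21 to -0.013, adjusted p = 0.198, edgeR), so the fall of Srf with HNG was not shown to differ from its value with MOTS-c. In all, 1 of 10 members passed lower and 0 higher, while 1.77% of the 14448 genes tested passed lower and 2.64% higher. Groups did not overlap for 2 of 10 members (Ajuba and Lats2), against 12.5% of all genes tested. An unadjusted p below 0.05 was found for 3 members (Ajuba, Lats2 and Srf), against 19.3% of all genes tested. All 10 log2 fold changes were below 0, from -0.32 for Ajuba to -0.02 for Ankrd1. Over all genes tested, 49.39% were below 0, with a median of 0.0023.

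**Figure D3:**
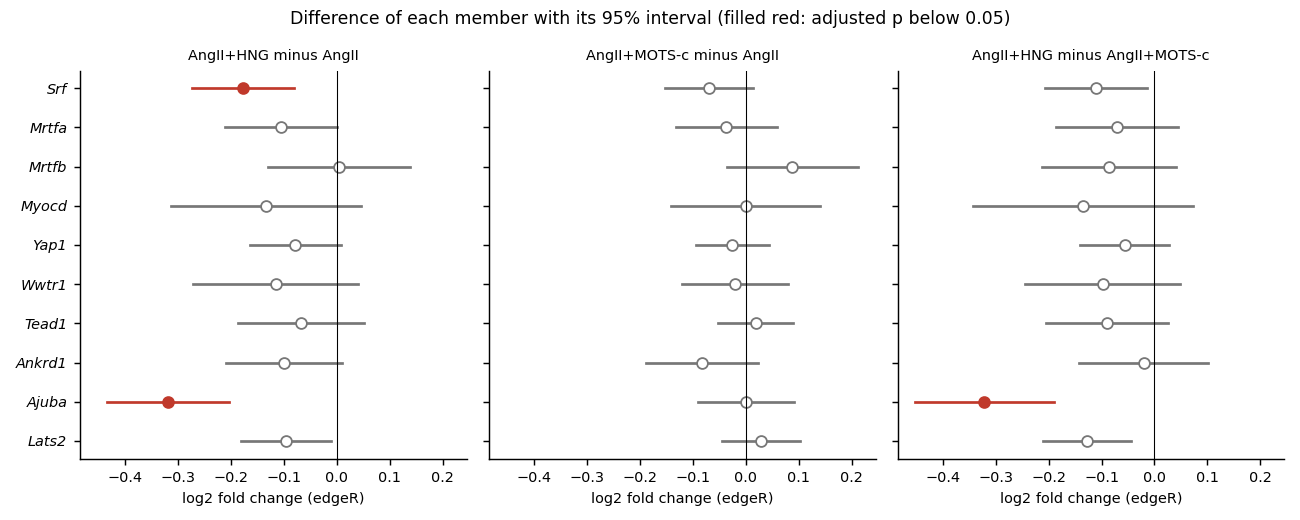
Log2 fold change from edgeR with its 95% interval for each member in the 3 comparisons, filled where the adjusted p was below 0.05. Ajuba (-0.32 and -0.32) passes in both comparisons that involve HNG, Srf (-0.18) in the comparison with AngII, and no member passes with MOTS-c against AngII.

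Genes that SRF and MRTF are known to control were lower with HNG. The list of 30 cytoskeletal targets was chosen with earlier results of these data known, so its direction is a description. With HNG against AngII, 23 of 30 passed the test lower and 0 higher, beside 2.58% and 3.40% of all genes, and the median log2 fold change was -0.21. The largest changes were in the actin-binding proteins of contractile cells Cnn1, Cald1 and Lmod1, at -0.41, -0.38 and -0.37, and in the smooth muscle myosin Myh11 at -0.34. Cnn1 was at 143.9, 146.8, 145.6 and 151.4 CPM with AngII and at 107.6, 107.5, 115.4 and 109.7 CPM with HNG, without overlap (adjusted p = 0.000126, edgeR). Acta2, the smooth muscle actin that marks myofibroblasts, fell from 4152 ± 86.0 to 3388 ± 130 CPM (SD, n = 4) with an adjusted p of 0.000727 in edgeR. Tagln, an actin-binding protein of smooth muscle, fell from 2158 ± 83.7 to 1727 ± 150 CPM (SD, n = 4) with an adjusted p of 0.0058 in edgeR.

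Of these 30 genes, 5 also stood in the list of smooth muscle and pericyte markers, and without them 19 of 25 passed lower with HNG against AngII, beside 2.58% of all genes. The summed level of the 12 smooth muscle and pericyte markers was 3067 to 3267 CPM with AngII, 2668 to 2918 CPM with HNG and 2944 to 3204 CPM with MOTS-c, and 6 of the 12 passed lower with HNG against AngII, beside the same 2.58%. Of the 7 markers outside the list of 30 targets, 2 passed lower (Mcam and Notch3), with a median of -0.05. Absence from that list does not mean that SRF leaves a gene uncontrolled. The part of smooth muscle cell content in the fall of the contractile genes was not tested. With MOTS-c against AngII, 0 of the 30 passed, 24 were below 0, 6 had an unadjusted p below 0.05 beside 5.05% of all genes, and the median was -0.05. In DESeq2 1 of the 30 passed with MOTS-c. With HNG against MOTS-c, 13 of 30 passed lower and 0 higher, beside 1.77% and 2.64% of all genes, with a median of -0.19, and the count was 21 in DESeq2, 20 with all 12 libraries in one fit, and 9 in limma with either pseudocount, without AngII+MOTS-c replicate 1 and without the libraries numbered 4. There Cald1 (-0.33), Lmod1 (-0.29), Smtn (-0.27) and Tpm2 (-0.27) changed most, and Acta2 differed by -0.26 (adjusted p = 0.0035, edgeR).

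The other SRF branch was covered by immediate early genes and TCF cofactors. Of 12 immediate early genes tested, Ier3, an early stress response gene, was the only one to pass, lower with HNG against AngII (-0.30) and against MOTS-c (-0.32), beside 2.58% and 1.77% of all genes passing lower. The list had a median of -0.10 against AngII, with 9 of 12 below 0 and 4 at an unadjusted p below 0.05 (20.3% of all genes), and a median of -0.14 against MOTS-c, with 10 of 12 below 0 and 3 at that p (19.3% of all genes). DESeq2 called 2 genes in each of these comparisons. The 3 TCF cofactors Elk1, Elk3 and Elk4 did not pass in any comparison, with 0 at an unadjusted p below 0.05, and their log2 fold changes with HNG against AngII were -0.0071 to 0.053.

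Among 22 genes of a YAP-TAZ target signature, which includes the members Ankrd1 and Lats2, 4 passed lower and 1 higher with HNG against AngII, beside 2.58% and 3.40% of all genes. The median was -0.12, and 12 of 22 had an unadjusted p below 0.05, beside 20.3% of all genes. The genes that fell were Tgfb2, a TGF-β ligand (-0.38), Ccn1 (-0.36) and Ccn2 (-0.31), secreted matricellular proteins, and Crim1 (-0.31), a membrane protein that binds growth factors. Ccn1 was at 412.7, 413.4, 404.3 and 360.5 CPM with AngII, at 319.0, 322.7, 310.4 and 287.4 CPM with AngII+HNG, and at 411.5, 409.7, 402.9 and 360.6 CPM with AngII+MOTS-c. The HNG libraries of Ccn1 lay below all others, and replicate 4 was the lowest in each group, as it was for Ajuba. Ccn2 had means of 2680 ± 163, 2164 ± 125 and 2633 ± 183 CPM (SD, n = 4) in the same order of groups. Nt5e, the ectonucleotidase CD73, rose by 0.22. The signature count was 8 in place of 5 in DESeq2.

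With MOTS-c, 0 of the 22 signature genes passed against AngII in edgeR or DESeq2, 3 had an unadjusted p below 0.05 beside 5.05% of all genes, and the median was 0.0059. With HNG against MOTS-c, 6 passed lower and 0 higher, beside 1.77% and 2.64% of all genes. They were Tgfb2 (-0.38), Gadd45b, a stress sensor (-0.37), Ccn1 (-0.36), Ccn2 (-0.28), Crim1 (-0.28) and the phosphatase Ptpn14 (-0.19). The count was 3 in limma on log2 FPKM, 9 in DESeq2, 9 with all 12 libraries in one fit and 8 with the replicate block.

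**Figure D4:**
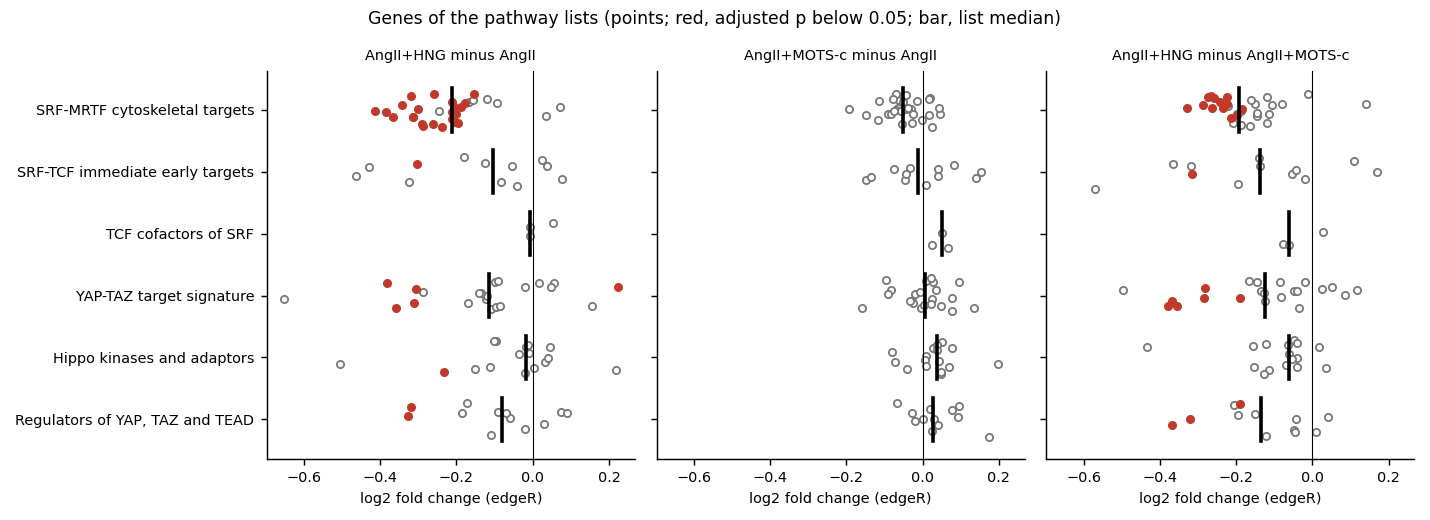
Log2 fold change from edgeR of each gene tested in 6 pathway lists, in the 3 comparisons, with filled points for an adjusted p below 0.05 and a bar at each list's median. The medians of the SRF-MRTF targets lie at -0.21, -0.05 and -0.19, and those of the Hippo kinases lie closer to 0, at -0.02, 0.04 and -0.06.

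Upstream components were described as a pair of lists, with each gene tested singly. Of 16 Hippo kinases and adaptors, 1 passed with HNG against AngII, the NDR kinase Stk38l (-0.23), and 0 passed in the other comparisons in the main edgeR fit. At an unadjusted p below 0.05 there were 5 of 16 for HNG against AngII, 1 of 16 for MOTS-c against AngII and 4 of 16 for HNG against MOTS-c, beside 20.3%, 5.05% and 19.3% of all genes. In the last 2 comparisons DESeq2 called 0 and 1, as did edgeR with all 12 libraries in one fit and with the replicate block. The call of Stk38l was lost (0 of 16 passing) in limma on FPKM with either pseudocount, without AngII replicate 2 and without the libraries numbered 4. Of 12 regulators of YAP, TAZ and TEAD that were tested, Ajuba and Vgll3, a TEAD cofactor (-0.33), passed lower against AngII, and Vgll3 (-0.37), Ajuba and Ptpn14 passed lower against MOTS-c, where 2.58% and 1.77% of all genes passed lower. At an unadjusted p below 0.05 there were 4 and 5 of these 12.

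Other cell type markers also moved with HNG. The summed level of macrophage markers was 238.6 to 285.6 CPM with AngII, 326.7 to 427.1 CPM with HNG and 236.2 to 284.0 CPM with MOTS-c, and 4 of 11 tested markers passed higher with HNG against AngII, where 3.40% of all genes did. The other direction was also seen, since 3 of the 11 were below 0, among them Adgre1 at -0.36 and C1qc at -0.43, neither past the threshold. Endothelial markers summed to 80.1 to 90.5, 102.8 to 113.3 and 84.6 to 90.3 CPM, and 4 of 10 passed higher. Of the 14 cardiomyocyte markers, 1 passed higher, Tnni3, at 0.43 against AngII and 0.54 against MOTS-c. Of the 9 fibroblast markers, 1 passed higher, Tcf21, at 0.28 against AngII and 0.35 against MOTS-c. In these comparisons 3.40% and 2.64% of all genes passed higher, and 2 of the 9 fibroblast markers were below 0 in each. Levels ran from 0.20 CPM (Cd163) to 126.5 CPM (Lyz2) in the macrophage list and from 0.66 CPM (Cldn5) to 24.2 CPM (Tek) in the endothelial list, as means over the 12 libraries. Lyz2 and Tek were among the markers that passed, at 0.75 and 0.40 on the log2 scale. The part of these markers in the levels of the members was not tested.

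**Figure D5:**
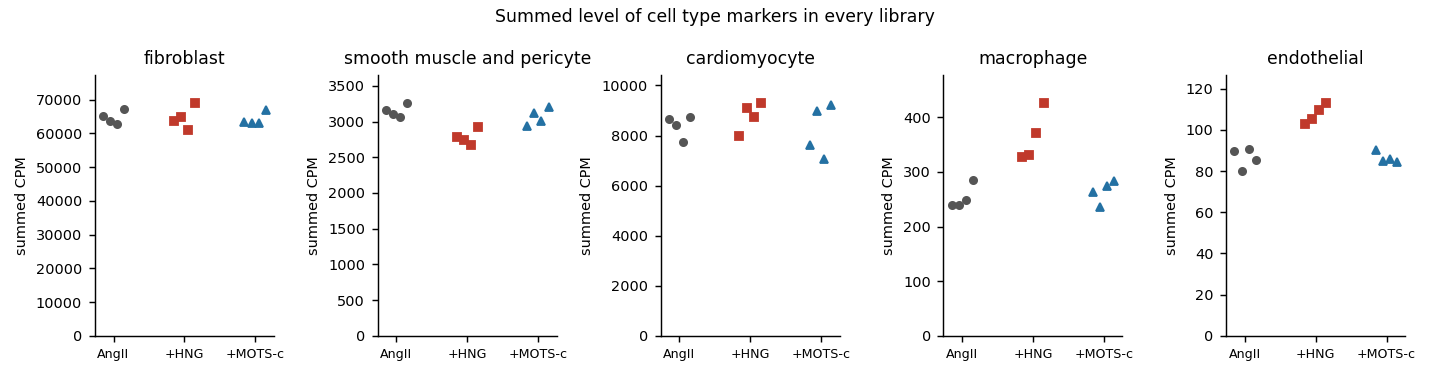
Summed CPM of 5 marker lists in every library, with replicates 1 to 4 from left to right in each group. Macrophage and endothelial sums are higher with HNG and smooth muscle sums lower, while fibroblast and cardiomyocyte sums overlap between groups.

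Across the 12 libraries, Srf and Ajuba had patterns more alike than any other pair of members, with a Pearson correlation of log2 CPM of 0.91. Ajuba with Lats2 (0.88), Yap1 with Wwtr1 (0.88) and Myocd with Tead1 (0.81) followed, and 43 of the 45 pairs were positive, with a median of 0.36. These correlations are descriptions over 12 libraries that share groups, depth and, for Myocd, Yap1, Wwtr1, Tead1 and Ankrd1, the low AngII+HNG replicate 3. Among 12197 genes searched, the closest to Srf were Tagln (0.96), the adhesion molecule Mcam (0.96) and the growth factor Tgfb3 (0.95). The closest to Ajuba were Ccn2, the LIM protein Pdlim7 and the matrix protein Ltbp2, each at 0.96. Yap1 was closest to Aspn, Slc9b2 and Adcy3 (0.92 to 0.94), and Wwtr1 to Ube2h, Itch and Rock1 (0.95 to 0.96). The closest to Lats2 were Farp1, Btg3 and Fat1, and to Tead1 Acsl4, Rif1 and Sntb2. Myocd lay closest to Ufm1, Chsy1 and Macrod2, Mrtfa to Fech, Tinagl1 and Rbmxl1b, Mrtfb to Zcchc2, Rnf207 and Plxna2, and Ankrd1 to Psmd5, Hspb3 and Gprc5b.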

How the data were processed

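RNA from 12 libraries of rat atrial fibroblasts was sequenced, with groups as given by the sample titles and doses as given by the methods. The authors deposited unnormalized whole-number counts for each gene, and FPKM values of the same genes, which divide the count by gene length and library total. The submitters' processing notes name HISAT2, Picard 1.41 and SAMtools 0.1.18. The genome build, annotation, counting tool and use of strand are not given in the sources used here, so reads of close paralogues or overlapping genes may be split in unknown ways.

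Differential expression was tested on counts with edgeR 4.0.16 in R 4.3.3 (filterByExpr, TMM, glmQLFit and glmQLFTest). Fits used only the 8 libraries of the groups compared and were two-sided, with Benjamini-Hochberg adjustment over all genes tested and a threshold of 0.05, because the methods name no test for these data. Log2 CPM was computed with a prior count of 2. The scripts were tested on simulated counts. One further pathway list is not reported here, although its genes are included where genes of the pathway lists are counted together. The members and lists were chosen with earlier results of these data known. Of each list, up to 4 genes with the largest changes among those past the threshold were named, with Acta2, Tagln, Ccn1 and Ccn2, and the 3 genes closest to each member by correlation. Lats1, Tead2, Tead3, Tead4, Elk1, Elk3, Elk4, Nt5e, Mcam, Notch3, Lyz2, Tek, Cd163, Cldn5, Adgre1, C1qc, Tnni3 and the motif-holding genes, and Crim1 and Ptpn14 against MOTS-c, were named after their values were seen. So were Tcf21, and Cnn1 and Myh11 with MOTS-c against AngII. Alternatives were DESeq2 1.42.0, scaling by RLE, omission of the low-count filter, all 12 libraries in one fit, a replicate block, replicates 2 and 3 summed, limma 3.58.1 on log2 of FPKM plus 1 or plus 0.1, and the omission of each library. Motifs were searched in RefSeq promoters of build GRCr8, whereas the build of the counts is unknown.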

Additional observations from a re-analysis of the deposited data

Results flagged for a closer look

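Each member was examined in each group, 30 groups of 4 libraries in all, for a library far from the others, by the gap to its nearest neighbour divided by the range of the group, against the 95% critical value of Dixon for 4 samples. Chance alone marks about 1 in 20 such groups, and 2 were marked. Yap1 was highest in AngII replicate 4, at 218.2 CPM, with the nearest library at 205.6 CPM and a ratio of 0.892. Wwtr1 was lowest in AngII+HNG replicate 3, at 33.4 CPM, with the nearest library at 41.1 CPM and a ratio of 0.932. This is the library in which Myocd, Yap1, Tead1 and Ankrd1 were also at their lowest CPM.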

How the results depend on the processing

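Of the 170 member values recomputed in each comparison, 155, 151 and 166 kept direction and side of the threshold (HNG against AngII, MOTS-c against AngII, HNG against MOTS-c). The call of Srf with HNG was lost in 9 of 17 alternatives, so that 1 member passed in place of 2 with replicates 2 and 3 summed, in limma on FPKM with either pseudocount, and without the libraries numbered 4, an alternative chosen after seeing the data. Leaving out 1 library gave 1 to 2. The cause was not tested. Against MOTS-c 2 members passed in place of 1 in DESeq2 and with all 12 libraries in one fit. For the genes of the pathway lists, HNG against AngII stayed within 23 to 45 around 33. Within these, the Hippo kinases gave 3 in DESeq2, 0 in limma with either pseudocount, 0 without the libraries numbered 4 and 0 to 2 leaving out 1 library (0 without AngII replicate 2) in place of 1, the immediate early genes 2 in place of 1, and the YAP-TAZ signature 8 in DESeq2 and with the replicate block in place of 5. MOTS-c gave 1 in DESeq2 in place of 0. HNG against MOTS-c gave 35 in DESeq2, 34 in the fit of all libraries, 35 with the replicate block and 14 in limma with either pseudocount, in place of 22.

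Differences near 0 that were never past the threshold turned sign. Mrtfb with HNG was -8.265e-06 in DESeq2, -0.0028 with replicates summed, -0.011 without the libraries numbered 4, and -0.0314 to 0.0361 leaving out 1 library. Myocd with MOTS-c was -0.0012 without the filter, -0.00048 with all libraries, -0.0040 with the replicate block, -0.0080 with replicates summed, -0.039 without the libraries numbered 4, and -0.0494 to 0.0438 leaving out 1 library. Ajuba with MOTS-c was -0.0014, -0.00059, -0.0015 and -0.0049 in the first 4 of these settings, and -0.0226 to 0.0417 leaving out 1 library. Wwtr1 with MOTS-c was 0.023 without the libraries numbered 4 and -0.0567 to 0.0131 leaving out 1 library. Ankrd1 between the peptides was -0.0718 to 0.0208 leaving out 1 library.

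The replicate numbers are shared between groups but not shown to pair the libraries. Correlations of same-numbered libraries were -0.0755 to 0.136 for HNG and AngII, 2.96e-05 to 0.119 for MOTS-c and AngII, and -0.014 to 0.212 for HNG and MOTS-c. The libraries numbered 4 matched their own number best in all 3 comparisons, those numbered 3 in 2 and those numbered 2 in 1, but not every library did. With the replicate block 2, 0 and 1 members passed, as without it.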
